A study of Mus musculus with 6 samples.

Results

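The S100 genes encode small calcium-binding proteins with a pair of EF-hand calcium-binding loops, and 9 of them were described here by every array probe set whose platform annotation named that gene and no other. Of 10 listed family members, S100a11 dropped out because its probe set also named other genes, and no value is given for it. The remaining 9 had 16 probe sets between them and stood among 8251 genes with a probe set of their own. The members were chosen by name. The family was taken up with the low S100a8 and S100a9 signals of the Aire-deficient cells already known, so the genotype differences of its members are given as a description, with errors and without p-values, and support nothing further.

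The groups were 3 arrays of mice with both copies of Aire (the autoimmune regulator gene) disrupted and 3 arrays of wild-type mice, all B6/129 F2 animals 3 to 5 weeks old and of both sexes. Each array was hybridised with RNA of a separate pool of 5 thymi, so 15 animals stood behind each genotype. Medullary thymic epithelial cells were sorted as CD45-negative, positive for the epithelial antibody G8.8, intermediate for CDR1 and high for the costimulatory molecule B7.1. Their RNA was amplified in 2 rounds with T7 polymerase, a method that favours the 3' end of transcripts. The labels restrict the disruption to no cell type.

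Aire drives transcription of many genes of peripheral tissues in the thymic medulla, where their products are shown to developing T cells. Most S100 proteins act as dimers that bind calcium, expose a hydrophobic face and then bind a partner protein. S100a8 and S100a9 pair into calprotectin, a zinc- and calcium-binding complex abundant in neutrophils and induced in stressed or keratinizing epithelium. In the mouse most genes of the family lie side by side on chromosome 3, on either side of the genes of the cornified envelope, which armour the outer epidermis.

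Signals are in arbitrary units after quantile normalization and group values are geometric means. SD and SE refer to log2 signals. Precision is limited by there being 3 arrays per genotype. Of 15 thymic epithelial markers on the array 13 were bright enough to be tested and 0 passed an adjusted p of 0.05 in either direction in the limma fit (unadjusted p under 0.05: 1 lower, 4 higher). With the replicate number as a block 1 was lower, Epcam (limma adjusted p = 0.0295), and 2 were higher, H2-Ab1 (0.0485) and Krt18 (0.0499). Of all genes tested 1.33% were lower and 0.387% higher without the block, and 3.7% and 2.59% with it. The summed signals of the thymic epithelial markers ran from 6373 to 7570 in Aire-deficient cells and from 4478 to 5484 in wild-type cells. The brightest were H2-Aa (2331 in Aire-deficient, 1981 in wild-type cells), H2-Eb1 (1618 and 978), H2-Ab1 (1131 and 653) and Ctss (923 and 544). The sums therefore say little of the dimmer markers, and Epcam was lower in Aire-deficient cells (89.2 against 197). The keratins Krt5 and Krt14 lay under the dim limit of 5.53 on all 6 arrays, while Krt8 averaged 355 in Aire-deficient and 275 in wild-type cells. The single Aire probe set gave 233 (SD 0.30, n = 3) in Aire-deficient and 92.7 (SD 0.60, n = 3) in wild-type cells, and it does not check the genotypes, because the disrupted segment is not named in the labels. The beta-actin ratio, its 3' signal over its 5' signal and a sign of RNA quality or amplification, was 4.38, 5.75 and 13.4 on Aire-deficient arrays 1 to 3 and 5.42, 95.8 and 13.8 on wild-type arrays 1 to 3, so wild-type array 2 stood apart.

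The family split in its genotype difference. S100a8, S100a9 and S100a10 were lower in the Aire-deficient cells, S100a4 and S100a6 were higher, and S100a13, S100a3, S100a1 and S100b did not pass the threshold. The 9 measured members passed the filter on dim signals. At an adjusted p under 0.05 in the limma fit over 5950 genes, 3 members were called lower, where 1.33% of all genes tested were, and 2 were called higher, where 0.387% were (5 in either direction, where 1.71% were). Nothing is read from these shares, since the family was chosen on this contrast. The groups did not overlap for 3 members that were lower and 3 that were higher, against 10.7% and 10.6% of all genes tested. The plot of signals by array shows the members one by one.

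**Figure D1:**
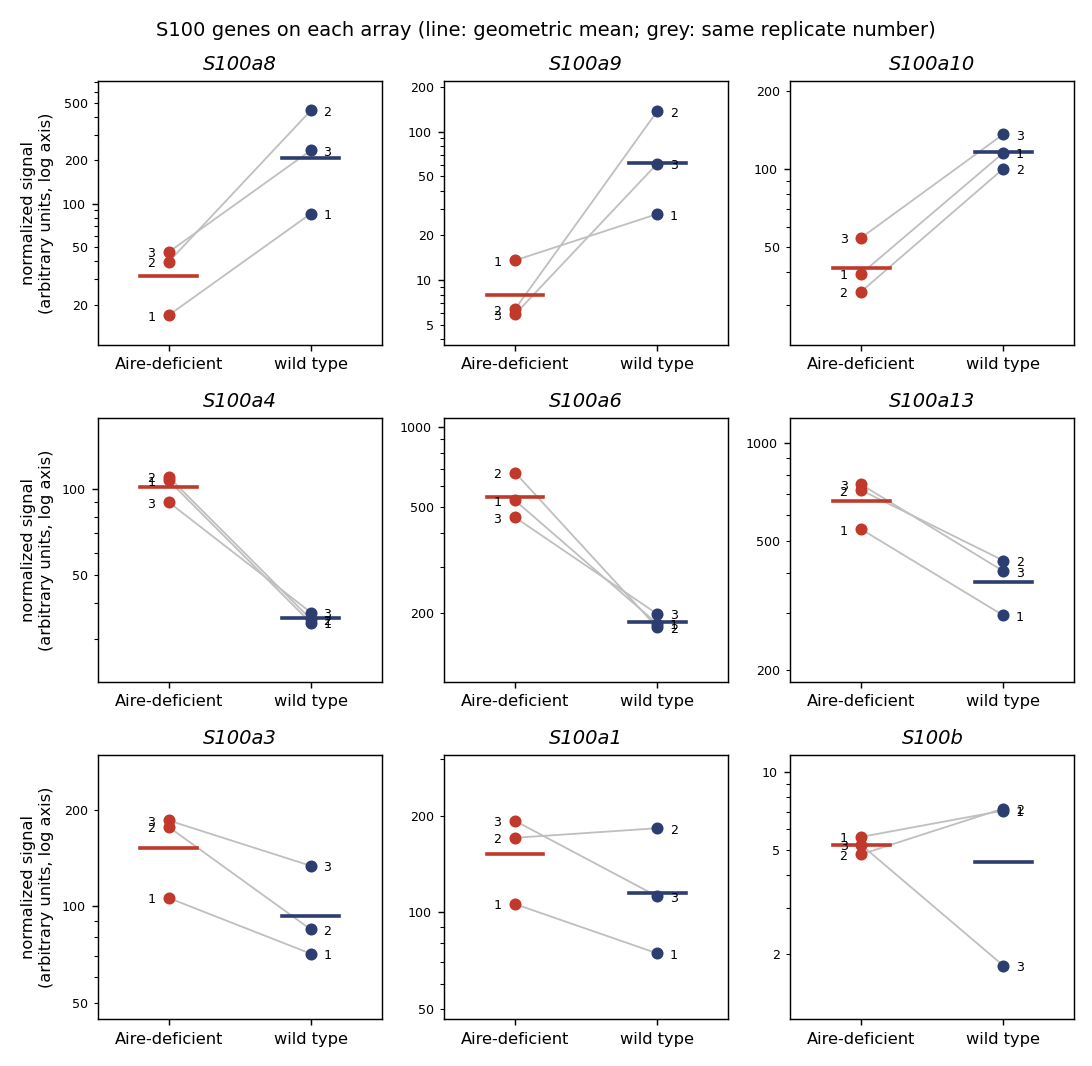
Normalized signal (arbitrary units, log axis) of the probe set that stands for each of 9 S100 genes, with 1 point per array, numbered by replicate, a bar at the geometric mean and grey lines between arrays of the same number; Aire-deficient arrays are on the left and wild-type arrays on the right. The groups are apart for S100a8, S100a9 and S100a10 (lower in Aire-deficient cells) and for S100a4, S100a6 and S100a13 (higher), and overlap for S100a3, S100a1 and S100b.

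The start-site regions of S100a8 and S100a9, and of S100a4 and S100a6, are shown because these neighbours had differences of like size and sign. Each is 300 bases of RefSeq sequence on GRCm38.p6, from 250 bases before to 50 bases after the annotated start, read 5′ to 3′ on the strand of the gene. Capitals mark matches on either strand to 4 motifs. The core of the TATA element was searched as TATAAA and that of C/EBP as TTGCNNAA. The AP-1 element was searched as TGANTCA. The PU.1 core was searched as GAGGAA, and in S100a8 one match to it ends where TATAAA begins, sharing no base with it. The window of S100a8 is chr3:90668821-90669120 (plus strand) and that of S100a9 is chr3:90695672-90695971 (minus strand). The window of S100a4 is chr3:90603520-90603819 and that of S100a6 is chr3:90612644-90612943 (both plus strand).
S100a8: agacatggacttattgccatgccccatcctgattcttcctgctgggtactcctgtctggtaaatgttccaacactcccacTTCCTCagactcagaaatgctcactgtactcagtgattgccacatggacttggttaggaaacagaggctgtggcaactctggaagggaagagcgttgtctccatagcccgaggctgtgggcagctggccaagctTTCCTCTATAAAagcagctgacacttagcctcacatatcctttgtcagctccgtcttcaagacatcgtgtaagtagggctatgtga
S100a9: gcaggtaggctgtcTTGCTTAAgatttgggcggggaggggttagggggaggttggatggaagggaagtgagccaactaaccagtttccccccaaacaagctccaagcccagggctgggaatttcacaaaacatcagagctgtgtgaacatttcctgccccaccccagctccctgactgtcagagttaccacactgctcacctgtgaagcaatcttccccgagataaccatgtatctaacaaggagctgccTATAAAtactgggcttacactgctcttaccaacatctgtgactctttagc
S100a4: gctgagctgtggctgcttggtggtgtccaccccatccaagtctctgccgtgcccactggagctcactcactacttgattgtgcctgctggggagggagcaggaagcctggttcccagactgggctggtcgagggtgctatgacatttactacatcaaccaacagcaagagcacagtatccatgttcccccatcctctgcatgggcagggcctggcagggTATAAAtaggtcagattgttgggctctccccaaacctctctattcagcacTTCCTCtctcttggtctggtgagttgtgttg
S100a6: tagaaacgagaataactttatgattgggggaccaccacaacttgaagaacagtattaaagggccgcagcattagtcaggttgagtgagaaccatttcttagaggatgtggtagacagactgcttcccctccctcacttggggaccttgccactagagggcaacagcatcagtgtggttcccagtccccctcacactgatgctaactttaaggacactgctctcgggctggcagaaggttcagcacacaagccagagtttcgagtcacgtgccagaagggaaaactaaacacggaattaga

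A TATAAA stood in the windows of both calprotectin genes, 30 bases before the annotated start of S100a8 and at the annotated start itself in S100a9. It also stood 31 bases before the start of S100a4, but not in the window of S100a6, whose signals followed those of S100a4. Among 8 measured members with a RefSeq window, 4 held TATAAA, S100a3 in 1 of its 4 windows, against 13.6% of 32544 windows of the same length. The percentages here are of single windows, whereas S100a3 was searched in 4, so counts of members and these percentages are not like measures. A C/EBP match was found in S100a9 and in no other measured member (10.8% of windows). PU.1 matches were found in S100a8, S100a4 and S100a3 (28.1% of windows), and AP-1 matches in 0 measured members (7.79%). The windows of S100a1 and S100a13 overlapped by 204 bases on opposite strands, so these genes start back to back, and neither held a match to any of these motifs. A match is a run of letters and not a shown binding site.

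The calprotectin subunits showed the largest differences of the 9. S100a8 measured 16.9, 39.6 and 46.3 on Aire-deficient arrays 1 to 3 and 85.5, 443 and 234 on wild-type arrays 1 to 3. The highest Aire-deficient array lay below the lowest wild-type array. The log2 difference was -2.72 ± 0.57 (SE), so that the signal was 6.60-fold lower in the Aire-deficient cells.

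S100a9 measured 13.6, 6.38 and 5.90 on Aire-deficient arrays 1 to 3 and 27.9, 137 and 60.8 on wild-type arrays 1 to 3. Its groups did not overlap either, and the Aire-deficient arrays 2 and 3 lay just above the dim limit. The log2 difference was -2.94 ± 0.55 (SE), or 7.68-fold lower.

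Both genes had their lowest wild-type signal on array 1 and their highest on array 2, the array with the high beta-actin ratio. Among the Aire-deficient arrays they ran opposite ways: array 1 was the lowest for S100a8 and the highest for S100a9. With a term for the beta-actin ratio the log2 differences were -1.90 ± 0.37 for S100a8 and -2.38 ± 0.51 for S100a9, and both stayed called. Without wild-type array 2 they were -2.19 and -2.40, and neither was called. Leaving out 1 array at a time, S100a8 stayed called without wild-type array 1, and S100a9 when array 1 of either genotype was dropped; the other left-out arrays each ended both calls, and Aire-deficient array 1 ended that of S100a8.

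S100a10, also known as p11, is the family member that binds annexin A2 and carries membrane proteins to the cell surface, and it has lost the ability to bind calcium. It measured 39.6, 33.8 and 54.4 on Aire-deficient arrays 1 to 3 and 115, 100.2 and 136 on wild-type arrays 1 to 3. The groups were well apart, with a log2 difference of -1.48 ± 0.31 (SE), or 2.78-fold lower. The call was lost without any 1 of the 6 arrays, at differences of -1.65 to -1.32. A second probe set for S100a10 was above the dim limit on 3 of 6 arrays and gave -0.20 ± 0.80, with the groups overlapping. Its annexin partner Anxa2, named here for that role after its values were seen, averaged 87.5 in Aire-deficient and 131 in wild-type cells (log2 difference -0.58 ± 0.28, limma adjusted p = 0.362), with no overlap between the groups.

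S100a4, known as metastasin, binds non-muscle myosin and is used as a marker of fibroblasts and of motile cells. It measured 107, 110 and 89.7 on Aire-deficient arrays 1 to 3 and 34.2, 35.2 and 37.2 on wild-type arrays 1 to 3. The wild-type arrays hardly differed from each other (SD 0.06), and each Aire-deficient array lay well above them. The log2 difference was 1.52 ± 0.28 (SE), or 2.86-fold higher.

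S100a6, known as calcyclin, is a protein of dividing and epithelial cells. It measured 531, 676 and 459 on Aire-deficient arrays 1 to 3 and 183, 177 and 199 on wild-type arrays 1 to 3. Again the wild-type arrays lay close together (SD 0.09) and the groups were far apart. The log2 difference was 1.56 ± 0.25 (SE), or 2.95-fold higher. Without wild-type array 2 the differences of S100a4 and S100a6 were 1.53 and 1.51, and with the beta-actin term they were 1.49 ± 0.28 and 1.49 ± 0.25. The call of S100a4 was lost without any 1 of the 6 arrays (1.46 to 1.59), and that of S100a6 without Aire-deficient array 2 or wild-type array 3 (1.41 to 1.66 over the 6 arrays).

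S100a13 takes part in the release of growth factors that lack a signal peptide. Its brightest probe set is of a design (suffix f) that may bind related sequences. That probe set measured 544, 717 and 747 on Aire-deficient arrays 1 to 3 and 295, 435 and 404 on wild-type arrays 1 to 3. The groups did not overlap, although array 1 was the lowest in both. The log2 difference was 0.83 ± 0.26 (SE), which was called only with the replicate number as a block (SE 0.21), where 3 members were called higher against 2.59% of all genes and 3 lower against 3.7%. A second probe set gave 625, 567 and 640 on Aire-deficient arrays and 343, 421 and 360 on wild-type arrays, again without overlap (log2 difference 0.71 ± 0.23). Another gave 0.04 ± 0.35 with the groups overlapping, and the last lay under the dim limit on all 6 arrays, so the probe sets of S100a13 disagreed.

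S100a3 is rich in cysteine and known from the hair cuticle. It measured 106, 177 and 186 on Aire-deficient arrays 1 to 3 and 71.1, 84.7 and 134 on wild-type arrays 1 to 3. The lowest Aire-deficient array lay below the highest wild-type array, and the log2 difference was 0.71 ± 0.34 (SE). Its second probe set separated the groups, at 63.4, 80.8 and 99.0 on Aire-deficient arrays and 39.4, 29.1 and 57.2 on wild-type arrays (log2 difference 0.98 ± 0.34).

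S100a1, a regulator of calcium handling in heart and skeletal muscle, measured 106, 171 and 193 on Aire-deficient arrays 1 to 3 and 74.5, 183 and 112 on wild-type arrays 1 to 3. The groups overlapped, since wild-type array 2 was as bright as the brighter Aire-deficient arrays. The log2 difference was 0.40 ± 0.38 (SE), or 0.73 without wild-type array 2. This probe set is of a design (suffix f) that may bind related sequences, and of the other 2 for the gene one was above the dim limit on 1 array and the other on 0.

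S100b, known from astrocytes, Schwann cells and melanocytes, is the member outside the cluster, on chromosome 10. It measured 5.62, 4.82 and 5.23 on Aire-deficient arrays 1 to 3 and 7.08, 7.22 and 1.80 on wild-type arrays 1 to 3. It lay above the dim limit on 1 Aire-deficient and 2 wild-type arrays, and 1.80 is the floor. Its log2 difference of 0.21 ± 0.64 (SE) turned to -0.46 without wild-type array 3, so no direction could be given.

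Arrays of the same number were also set against each other, since deviations from the group means went together within each number. In 7 of the 9 members all 3 pairs lay on the same side of 0. The share of all genes tested that do so was not counted, and the family was chosen on this contrast, so nothing is read from that number. S100a8 differed by -2.34, -3.49 and -2.34 in pairs 1 to 3 and S100a10 by -1.54, -1.57 and -1.32. S100a9 varied most among the members that were called, with -1.03, -4.42 and -3.36. S100a4 differed by 1.64, 1.64 and 1.27 and S100a6 by 1.54, 1.93 and 1.21. Pair 2 of S100a1 went against the other two pairs (-0.10, against 0.51 and 0.78), and pair 3 of S100b did so (1.54, against -0.33 and -0.58). With the number as a block the SE of S100a8 was 0.29, against 0.57 without it, while that of S100a9 was 0.50, against 0.55.

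**Figure D2:**
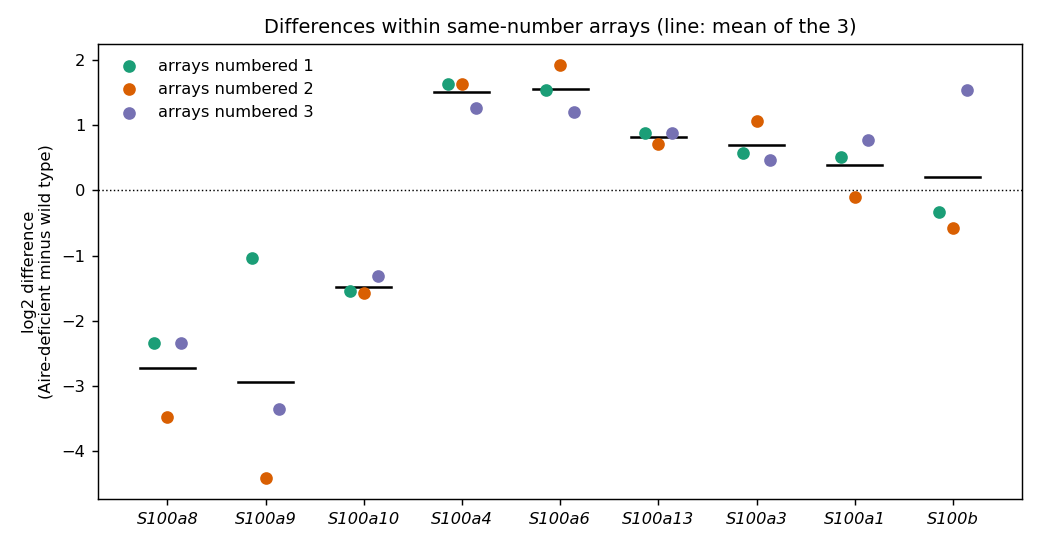
Log2 difference between the Aire-deficient and the wild-type array of the same replicate number (vertical axis) for 9 S100 genes, with 1 coloured point per number and a black line at the mean of the 3. All 3 points lie below 0 for S100a8, S100a9 and S100a10 and above 0 for S100a4, S100a6, S100a13 and S100a3, while those of S100a1 and S100b lie on both sides.

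Along chromosome 3 the differences changed sign between S100a6 and S100a8. In RefSeq order the tested members of the family ran S100a1, S100a13, S100a3, S100a4 and S100a6, with log2 differences of 0.40, 0.83, 0.71, 1.52 and 1.56, and then S100a8 and S100a9, with -2.72 and -2.94. S100a10 closes the cluster at the far side of the cornified envelope genes, with -1.48. Of 4 other S100 genes on the array 3 were tested. S100a5, which lies between S100a4 and S100a6, averaged 15.3 in Aire-deficient and 4.70 in wild-type cells without overlap (log2 difference 1.70 ± 0.52). It was above the dim limit on 3 Aire-deficient arrays and 1 wild-type array, so the Aire-deficient arrays alone met the filter and its calls are no support. S100a5 was not called in the fit without a block, and was called with the replicate block and with the beta-actin term. S100a14, an epithelial member next to S100a13, differed by 0.13 ± 0.29. S100g, an intestinal calcium carrier on the X chromosome, differed by 0.84 ± 0.36.

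**Figure D3:**
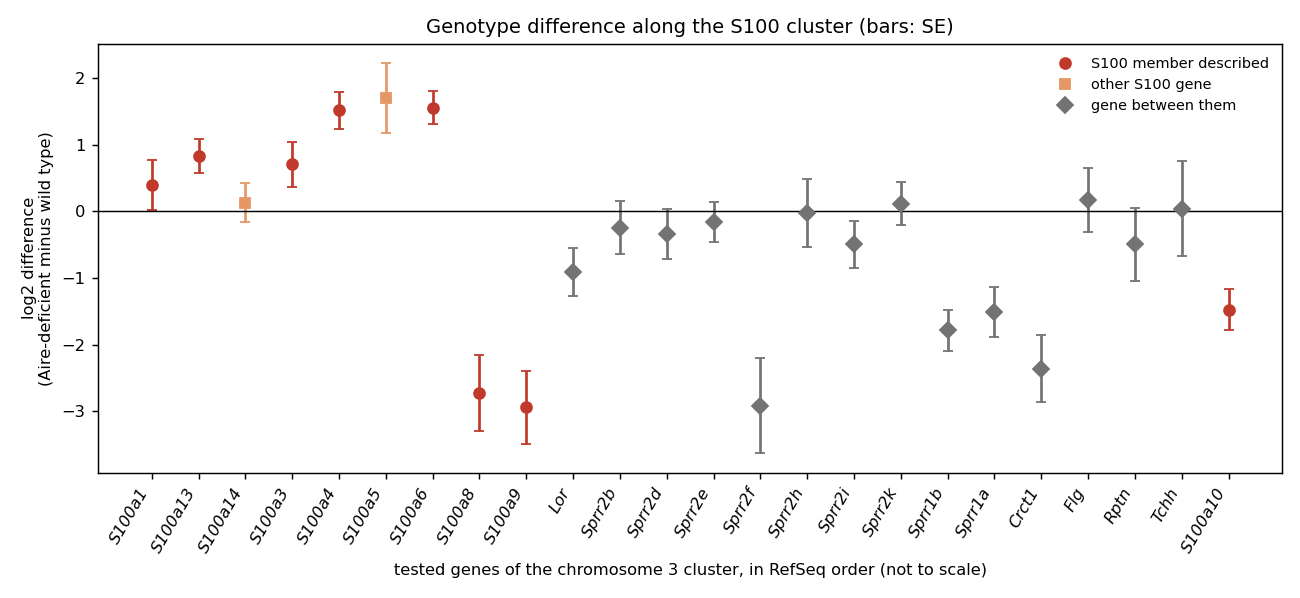
Log2 difference (Aire-deficient minus wild type, vertical axis) with its SE for the tested genes of the chromosome 3 cluster in RefSeq order, not to scale. Circles are the S100 members described, squares are other S100 genes and diamonds are the genes between them; values lie above 0 from S100a1 to S100a6, at -2.72 and -2.94 for S100a8 and S100a9, and at -1.48 for S100a10.

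Between the outermost S100 genes the array carried 17 genes outside the family, mostly small proline-rich proteins and other parts of the cornified envelope, of which 14 were tested. Of these 2 were lower, 0 were higher and 4 were lower without overlap, with a median log2 difference of -0.41 against 0.05 over all genes tested (unadjusted p under 0.05: 5 lower, 0 higher). With the replicate block 4 were lower. Of all genes tested 1.33% were called lower, 0.387% higher and 3.7% lower with the block, and 10.7% were lower without overlap. Sprr1b, a cornified envelope precursor, averaged 66.4 in Aire-deficient and 229 in wild-type cells (log2 difference -1.79 ± 0.30, limma adjusted p = 0.0206). Crct1, a cysteine-rich protein of the same region, averaged 21.0 in Aire-deficient and 108 in wild-type cells (-2.36 ± 0.50, limma adjusted p = 0.0452). The call of Crct1 was lost with the beta-actin term (limma adjusted p = 0.0793) and without any 1 array but Aire-deficient array 1 (0.0799 to 0.2). That of Sprr1b was lost without any 1 Aire-deficient array or wild-type array 3 (0.0554 to 0.0986). Sprr2f and Sprr1a gave -2.91 ± 0.72 and -1.51 ± 0.37 (limma adjusted p = 0.0739 and 0.0757, or 0.00245 and 0.0223 with the block), Lor -0.91 ± 0.36 and Sprr2i -0.49 ± 0.35.

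S100a4 and S100a6 had nearly the same profile over the arrays. Likeness was measured as the root mean square distance between log2 signals over the 6 arrays after each gene's own mean was taken off. By this measure S100a6 was the nearest of all tested genes to S100a4, and S100a4 the nearest to S100a6, at a distance of 0.10. S100a13 ranked 156 in likeness to S100a4 and S100a3 ranked 572. S100a8 and S100a9 lay 0.85 apart, where S100a9 ranked 68 among the genes nearest to S100a8. After centring, S100a8 measured 0.08, 2.46 and 1.54 on wild-type arrays 1 to 3 and S100a9 measured 0.33, 2.63 and 1.45, so those arrays ran together. On the Aire-deficient arrays S100a8 stood at -2.26, -1.03 and -0.80, and S100a9 at -0.70, -1.80 and -1.91. These distances include each gene's genotype difference and are a description.

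**Figure D4:**
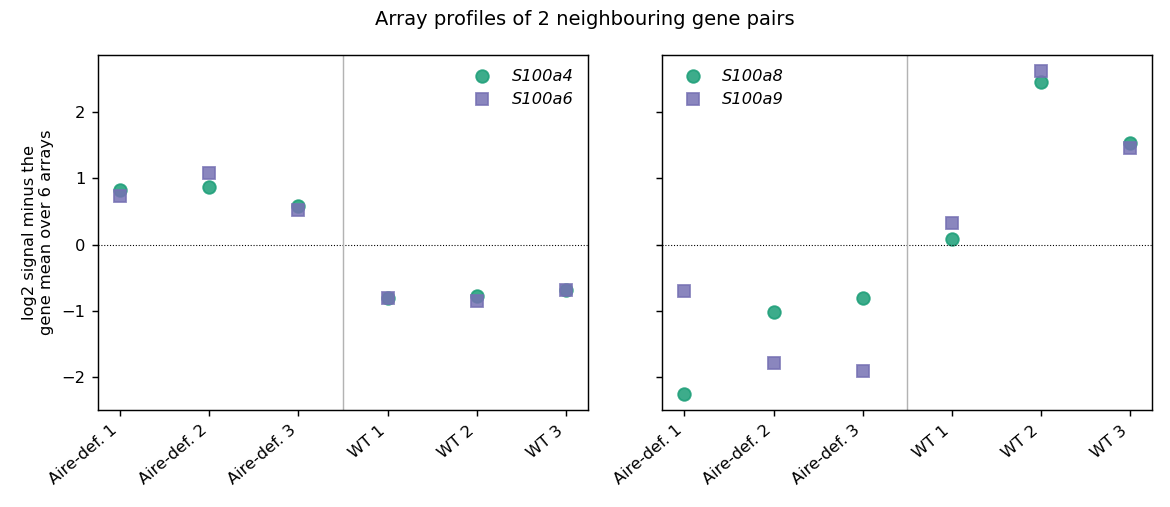
Log2 signal minus the gene's mean over 6 arrays (vertical axis) on each array for S100a4 and S100a6 (left) and for S100a8 and S100a9 (right). S100a4 and S100a6 nearly coincide, at a root mean square distance of 0.10, whereas S100a8 and S100a9 go together on the wild-type arrays and part on the Aire-deficient arrays.

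Outside the family, the 3 tested genes nearest to S100a8 were Il9, a cytokine, at a distance of 0.20, Acta2, smooth muscle actin, at 0.51, and Slfn4, a schlafen gene of myeloid cells, at 0.54. Il9 measured 1.80, 5.23 and 6.80 on Aire-deficient arrays 1 to 3 and 14.3, 61.2 and 28.5 on wild-type arrays 1 to 3. Like S100a8 it was lowest on array 1 in both genotypes, although its Aire-deficient value there is the floor. Il9, Acta2 and Slfn4 all lay under the dim limit on Aire-deficient arrays 1 and 2. The wild-type arrays alone met the filter for them, so their likeness to S100a8 is no support either. The genes nearest to S100a9 were Mucl1 at 0.43, the gut defensin gene Defa23 at 0.46 and Crct1, a neighbour in the cluster, at 0.52. Mucl1 and Defa23 lay under the dim limit on all Aire-deficient arrays. They passed the filter only through the wild-type arrays, so their likeness is no support. Crct1 measured 39.6, 16.3 and 14.4 on Aire-deficient arrays 1 to 3 and 85.7, 213 and 68.9 on wild-type arrays 1 to 3, so that, as for S100a9, Aire-deficient array 1 was the highest of its group.

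S100 proteins act through partners, and 0 of those tested were called. Of 33 binding partners and receptors 28 were on the array and 19 were tested. In the limma fit 0 were lower and 0 higher (unadjusted p under 0.05: 3 each). With the replicate block 1 was lower and 1 higher, against 3.7% and 2.59% of all genes tested. Without overlap 2 were lower and 3 higher, against 10.7% and 10.6% of all genes tested, and the median log2 difference was -0.07. Anxa1, a partner of S100a11, averaged 176 in Aire-deficient and 456 in wild-type cells (-1.37 ± 0.56, limma adjusted p = 0.276, or 0.0116 with the block). Bsg, a receptor for S100A9 in human cells, averaged 8.80 in Aire-deficient and 18.9 in wild-type cells (-1.10 ± 0.42, limma adjusted p = 0.248). Syt1, which joins S100a13 in growth factor release, averaged 32.5 in Aire-deficient and 15.3 in wild-type cells (1.09 ± 0.39, limma adjusted p = 0.22). Pgm1, a sugar phosphate enzyme, averaged 303 in Aire-deficient and 113 in wild-type cells (1.42 ± 0.33, limma adjusted p = 0.0626, or 0.0112 with the block).

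Of 37 calcium-binding proteins with EF hands outside the family 28 were tested, with a median log2 difference of -0.09. Of these 1 was lower and 0 were higher (unadjusted p under 0.05: 2 and 0), against 1.33% and 0.387% of all genes tested. The called gene was Calb2, or calretinin, a calcium buffer of neurons. It measured 2.47, 6.12 and 1.80 on Aire-deficient arrays 1 to 3 and 17.2, 14.6 and 16.9 on wild-type arrays 1 to 3 (log2 difference -2.43 ± 0.51, limma adjusted p = 0.045). Of the Aire-deficient arrays only array 2 lay above the dim limit, so the wild-type arrays alone met the filter and the call of Calb2 is no support. Without the filter on dim signals the limma adjusted p was 0.182. That call was also lost with the beta-actin term (limma adjusted p = 0.0563) and without any 1 array but Aire-deficient array 2 (0.0897 to 0.125). Myl4, a myosin light chain of atrium, gave -1.55 ± 0.49 (limma adjusted p = 0.158), Lcp1, an actin bundler of blood cells, 0.61 ± 0.28 (0.34), and Rcn1, a resident of the secretory pathway, -1.10 ± 0.51 (0.344).

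Genes of keratinized epithelium, where S100a8 and S100a9 are also found, were lower in part. Of 42 on the list 27 were tested, 2 were lower and 0 higher in the limma fit (unadjusted p under 0.05: 8 and 0), and 9 were lower without overlap, with a median log2 difference of -0.53. With the replicate block 7 were lower. Over all genes tested 1.33% were called lower, 0.387% higher and 3.7% lower with the block, and 10.7% were lower without overlap. This list shares the small proline-rich genes with the cluster on chromosome 3. Besides Sprr1b, the mucosal keratin Krt4 averaged 14.6 in Aire-deficient and 40.7 in wild-type cells (-1.48 ± 0.31, limma adjusted p = 0.044, or 0.0653 to 0.164 without any 1 array). Krt10, a keratin of the outer epidermis, named after its values were seen, measured 172, 108 and 76.4 on Aire-deficient arrays 1 to 3 and 740, 338 and 182 on wild-type arrays 1 to 3 (-1.67 ± 0.48, limma adjusted p = 0.125, or 0.00422 with the block). Array 1 was the brightest in both genotypes for Krt10 and Krt6a, whereas for S100a8 it was the dimmest. Other genes of the list ran otherwise. Among the wild-type arrays Sprr1b and Sprr2f were brightest on array 2, as S100a8 was, and Sprr1a was dimmest on array 1. What these array orders reflect was not tested.

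Markers of granulocytes, the blood cells richest in S100a8 and S100a9, are set beside both genes. Of 20 markers 18 were on the array and 11 were tested. In the limma fit 4 were lower and 0 higher (unadjusted p under 0.05: 5 and 0), against 1.33% and 0.387% of all genes tested. Of these 4, Ltf, Ly6g and Ngp lay under the dim limit on all Aire-deficient arrays and passed the filter only through the wild-type arrays, so their count is no support. Without the filter on dim signals 0 of the 4 were called (limma adjusted p of 0.0847 to 0.135). Ltf, lactoferrin of neutrophil granules, measured 3.72, 1.80 and 1.80 on Aire-deficient arrays and 34.9, 21.5 and 20.5 on wild-type arrays, at least 4.49-fold lower by the dim limit (limma adjusted p = 0.00756). Ly6g, a granulocyte surface protein, was at least 4.81-fold lower (limma adjusted p = 0.00872) and Ngp, a granule protein, at least 4.59-fold lower (limma adjusted p = 0.0135). Camp, the cathelicidin precursor, averaged 21.4 in Aire-deficient and 95.5 in wild-type cells (limma adjusted p = 0.0286). Among the wild-type arrays Ltf and Ly6g were brightest on array 1, whereas Ngp and Camp were brightest on array 2, as S100a8 and S100a9 were. With array 3 of the wild type left out 0 of these 4 were called, and with Aire-deficient array 2 left out 2 were. In contrast Elane, Ctsg, Itgam, Cxcr2, Mmp8 and Fpr2 lay under the dim limit on all 6 arrays. Mmp9, Lcn2, Chil3, Il1r2 and Csf3r were above it on all 6 arrays and overlapped between the groups, with log2 differences of -1.10, -0.24, 0.47, 0.64 and 0.72.

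The summed granulocyte signal ran from 293 to 331 on Aire-deficient arrays and from 351 to 455 on wild-type arrays. Bright markers weigh most in this sum, and they went both ways. Il1r2 averaged 139 in Aire-deficient and 89.5 in wild-type cells, and Camp 21.4 and 95.5. The sum therefore says little of the dimmer markers. The part of granulocytes in the S100a8 and S100a9 difference was not tested. In RNA of a sorted population fewer cells of a type and less RNA per cell cannot be told apart. The sort left out cells with CD45, and its gene Ptprc averaged 8.62 in Aire-deficient and 5.83 in wild-type cells. Over the 8 marker lists examined (granulocyte, monocyte and macrophage, dendritic cell, T cell, B cell, thymic epithelium, fibroblast and endothelium, glia and melanocyte) the granulocyte list was the one with called genes in the fit without a block. Its calls of Ltf, Ly6g and Ngp came through the wild-type arrays alone, as said above, and without the filter it had 0 calls. The lists are therefore not ranked by these calls. With the replicate block 5 of the 8 lists had called genes. These were 4 granulocyte markers (lower), Cd14 (lower) and Cd68 (higher) of monocytes and macrophages, Pax5 (higher) of B cells and the 3 epithelial genes named above. Of dendritic cells Ccl17 and Ccl22 (lower) and Batf3 and Cd83 (higher) were called. In all 8 were lower and 6 higher, against 3.7% and 2.59% of all genes tested with the block. For Pax5 the Aire-deficient arrays alone met the filter on dim signals, so its call is no support. The monocyte and macrophage genes Cd14 and Cd68 went opposite ways. Cd14 averaged 45.9 in Aire-deficient and 148 in wild-type cells (limma adjusted p = 0.0626, or 0.00595 with the block). It was also called with the higher floor (0.0446). Cd68 averaged 21.4 in Aire-deficient and 6.85 in wild-type cells (limma adjusted p = 0.0661, or 0.0234 with the block). It was also called as deposited, after median scaling and with the higher floor (0.042 to 0.0495). The fibroblast and endothelial markers, set beside the fibroblast-associated S100a4, had a median log2 difference of 0.02 with 0 lower and 0 higher in the limma fit (unadjusted p under 0.05: 1 and 0). Their summed signals ran from 179 to 344 on Aire-deficient arrays and from 154 to 343 on wild-type arrays.

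**Figure D5:**
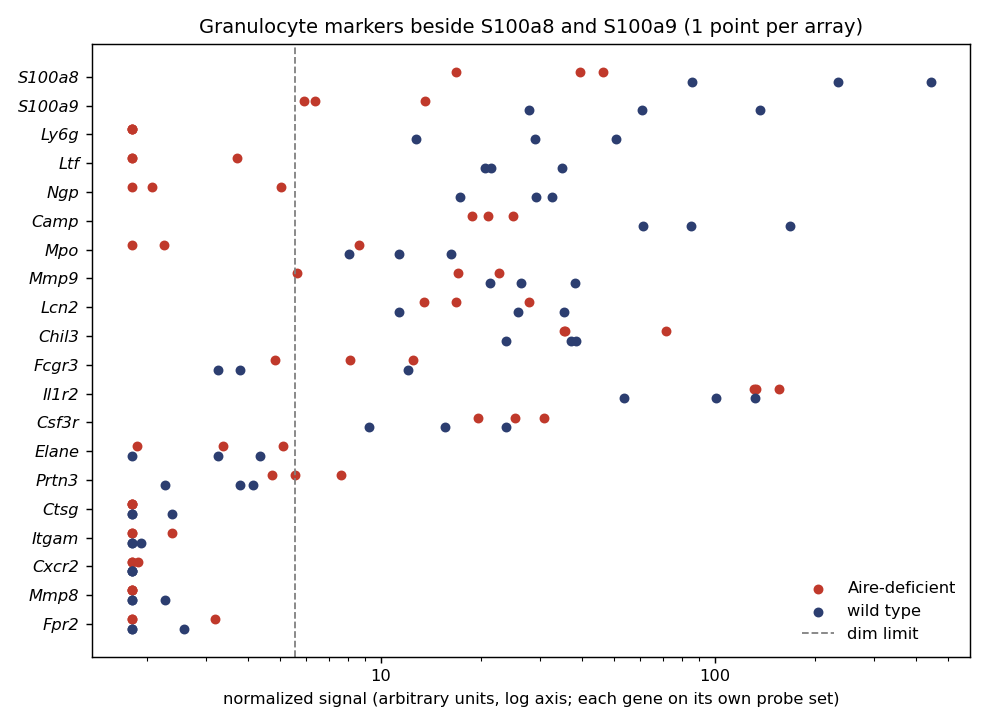
Normalized signal (arbitrary units, log axis) of S100a8, S100a9 and 18 granulocyte markers, each read on its own probe set, with 1 point per array, Aire-deficient above wild type in each row and the dim limit of 5.53 as a dashed line. The groups are apart for S100a8, S100a9, Ly6g, Ltf, Ngp and Camp, but Ly6g, Ltf and Ngp passed the filter only through the wild-type arrays. The groups overlap for Mpo, Mmp9, Lcn2, Fcgr3, Chil3, Il1r2 and Csf3r. Rows such as Itgam and Cxcr2 stay under the limit in both genotypes.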

How the data were processed

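Gene expression of sorted medullary thymic epithelial cells was measured on 6 1-colour oligonucleotide arrays. The authors deposited linear signal intensity per probe set. Its software, background correction and scaling are not stated in the labels. The 12488 probe sets included 66 controls, which were dropped. The other 12422 were quantile normalized, raised to the pooled 20th percentile (1.8, the floor) and log2 transformed. Probe sets were named by GEO's platform annotation: 10833 had 1 gene, 396 several and 1193 none. For each of 8251 genes the probe set with the highest mean stood for the gene, and the 5950 genes above the pooled 40th percentile (5.53, the dim limit) on at least 3 arrays were tested. The floor makes folds of dim genes too small. Where all arrays of a group were under the dim limit, the fold is the other group's geometric mean over that limit.

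The genotype contrast was fitted in R 4.3.3 by limma 3.58.1 (lmFit and trended eBayes, 2-sided, Benjamini-Hochberg over all genes tested, threshold 0.05), without a block. A gene past the threshold is said to be called. Second probe sets take their SE from a fit of all single-gene probe sets. P-values measure the spread between pools. Pairing was checked on each array's departures from its group mean: those of same-number arrays correlated at 0.38, 0.21 and 0.19, those of different numbers at -0.26 to 0.08, so the numbers were taken as pairs from the data. Where the block changes a call it is given beside the result. Gene order and promoter windows come from RefSeq, GRCm38.p6. The fit was tested on simulated data. Alternatives were other scalings, floor, filter, probe sets and variance model, the block, a term for the beta-actin ratio and leaving out each array.

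The members, lists and naming rule were chosen with earlier results of these data known. Named are all members, up to 4 genes of a list with the smallest p (up to 6 of the cluster), and the 3 genes nearest to S100a8 and to S100a9. Other markers, such as those called with the block, and genes said to be so in the text were named after their values were seen. Python 3.11.15 with matplotlib 3.10.9 drew the plots.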

Additional observations from a re-analysis of the deposited data

How the results depend on the processing

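The probe sets that stood for the 9 measured members kept their sign under all alternatives run on them, except that of S100b, which turned to -0.24 with the floor at the 40th percentile and to -0.46 without wild-type array 3 (-0.46 to 0.54 over the left-out arrays) and had too dim a signal to be tested as deposited. On the values as deposited and after median scaling the median of all genes was 0.18 instead of 0.05, and the higher members gained (S100a13 1.18 in both). Calls were less stable. Of 14 alternatives S100a6 was called in 10, S100a4 and S100a9 in 8, S100a8 in 6, S100a10 in 4 and S100a13 in 1. S100 genes called lower numbered 1 after median scaling and 0 without a filter on dim signals and without a variance trend, and those called higher 1 in both of the latter. Leaving out 1 array at a time, with the 6-array gene set kept, gave 0 to 2 S100 genes lower and 0 to 1 higher, 6 to 51 genes lower and 1 to 11 higher in all, 0 to 4 granulocyte markers lower, 0 to 1 other EF-hand genes lower and 0 to 1 keratinized epithelium genes lower. Without Aire-deficient array 2 and without wild-type array 3 no S100 gene was called by limma. Without wild-type array 2 the 1 called was S100a6.

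Blocking on replicate number gave 220 genes lower and 154 higher, against 79 and 23 without it, 7 keratinized epithelium genes were lower, and 1 binding partner was lower and 1 higher; the S100 calls gained S100a13 and lost none. Without a filter 12 genes were lower and 4 higher, and the granulocyte, EF-hand and keratinized epithelium calls numbered 0. Genes called higher numbered 63 as deposited, 57 after median scaling, 46 with the higher floor and 11 without a variance trend. Genes called lower numbered 80, 74, 103 and 65 under those same alternatives, so 55.9%, 56.5%, 69.1% and 85.5% of calls were lower, against 77.5% in the fit as reported. A partner, Pgm1, was called higher as deposited, after median scaling and with the higher floor (1 each). Keratinized epithelium genes called lower numbered 1 after median scaling and 1 without a variance trend, and EF-hand genes 0 with the beta-actin term. The causes were not tested.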
